A study of Homo sapiens with 6 samples.

Results

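The regions described here are the 1153 accessible regions named for a numbered zinc-finger gene (a gene symbol of ZNF, digits and at most 1 final letter) that lay within 10000 bases of that gene's start. They were 1153 of 226920 regions in all and belonged to 482 genes. The rule used gene names and distances and no measured value. The assay was ATAC-seq, which reads open chromatin through the insertion of sequencing adapters by Tn5 transposase. The cells were of A375, an established line of human melanoma. They were given recombinant HMGA1, an architectural protein that binds AT-rich DNA, for 2 h or for 18 h, or were untreated (mock), with 2 libraries per group. The dose, any vehicle and the time at which mock cells were taken are not stated in the labels. Those labels call the libraries biological replicates without naming separate cultures. Each p-value thus sets a fold change against an error estimated from these libraries alone, whose variation may be technical. Only values of comparisons between groups were at hand, so no value of a single library is given and library depth is unknown.

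Numbered ZNF genes are mostly C2H2 zinc-finger genes, whose products read DNA through arrays of fingers that each hold a zinc ion. Many of them also carry a KRAB domain, which recruits the corepressor TRIM28 and, through it, histone methyltransferase and HP1 proteins to silence transposable elements and other targets. These genes arose by repeated tandem duplication and stand in long clusters, above all on human chromosome 19. Others act outside KRAB silencing, as activators, as parts of corepressor complexes or in RNA and ribosome biology.

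Of the 1153, 387 lay at a gene start (distance 0), 146 lay 1 to 1000 bases away and 620 lay farther away. The share at a start was 33.6%, against 17.3% of the 55244 regions within 10000 bases of other genes. A total of 213 genes had 1 region and 269 had at least 2. Chromosome 19 held 449 of the regions (38.9%), from 233 genes, against 4.56% of all regions. Chromosome 16 followed with 113 regions. Mean signal, the deposited read count over the 6 libraries after the authors' scaling, had a median of 92.8 over the ZNF regions and 39.3 over all regions. Among regions tested between 18 h and 2 h, it was 423 for ZNF genes and 412 for other genes at starts, and 103 and 90.2 over 1000 bases from a start. The ZNF regions with the highest signal were those at the starts of ZNF687 (1883), ZNF672 (1591) and ZNF277 (1302, a region also named for DOCK4), and one 1857 bases downstream of the start of ZNF446 (1377). Genes with the most regions were ZNF385A and ZNF497 with 12 each, ZNF512B and ZNF687 with 11 each, and ZNF608 with 10, level with ZNF692. The limit of 10000 bases fell between regions of ZNF165 (9987 bases) and ZNF205 (9984 bases) inside it and of ZNF496 (10007 bases) and ZNF462 (10019 bases) outside it.

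The promoter sequences of the ZNF start regions differed from those of other genes in composition. RefSeq promoters on GRCh38.p14, running from 250 bases before to 50 bases after a gene's start, were at hand for 321 of the 387 ZNF start regions and for 6621 start regions of other genes. Median GC content was 61% in ZNF promoters and 66% in the others. The word CCAATCAG, which holds the CCAAT box read by the NF-Y complex, was found on either strand in 23.7% of ZNF promoters (76), in 5.54% of the others and in 4.64% of all 22199 promoters in the table. The word CCGGAAG, which is shared by binding sites of ETS factors, was found in 43% of ZNF promoters, 18.4% of the others and 12.8% of the whole table. An A/T run of at least 6 bases was present in 54.8% and 46.1%, and TATAAA in 2.49% and 5.33%. A word match is a description of these letters and not a bound site. Both words were picked after ZNF promoters had been searched for words that are frequent in them, so their frequency carries no test.

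The words were unevenly spread over the gene clusters. Groups of at least 20 ZNF regions with no gap over 1000000 bases formed 11 clusters. Cluster 5 lay on chromosome 19 between 19668563 and 24087360 and held 35 genes, among them ZNF91, ZNF93, ZNF43, ZNF85 and ZNF431. There 24 of 25 promoters held CCAATCAG, 18 held CCGGAAG and 12 held CCAATCAG at least 2 times. In cluster 4 (chromosome 19, 11496252 to 12615189, 26 genes) 20 of 22 promoters held CCAATCAG and 1 held CCGGAAG. Cluster 8 (1 of 28) and cluster 9 (0 of 43), also on chromosome 19, almost lacked the first word but held CCGGAAG in 60.7% and 67.4%. Outside clusters 4 and 5 the share with CCAATCAG was 11.7%. The matches stood a median of 67 bases before the gene start, with quartiles at 54 and 87 bases. Promoters of cluster 5 were also alike as a whole: their median pairwise identity was 76%, and 77 of 300 pairs were at least 80% identical, with 92% for ZNF714 and ZNF431. Medians in clusters 4, 8 and 9 were 53.3%, 51.4% and 50.7%. How the authors' counting placed reads between similar copies is not given in the sources used here, so values of single genes in cluster 5 are uncertain to that extent.

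The 250 bases before the start of 5 genes are printed below, 5′ to 3′ on the gene's strand, from RefSeq (GRCh38.p14). ZNF354C (chr5:179060123-179060372, plus strand) and ZNF671 (chr19:57727625-57727874, minus strand) are shown because, of the start regions with a promoter entry, theirs had the smallest p between 18 h and 2 h. ZNF257 (chr19:22052234-22052483, plus strand), ZNF486 (chr19:20166964-20167213, plus strand) and ZNF737 (chr19:20565782-20566031, minus strand) are shown as the cluster 5 promoters with CCAATCAG whose p was smallest in that comparison. Capitals mark CCAATCAG and CCGGAAG, the second read on the other strand as CTTCCGG.
ZNF354C: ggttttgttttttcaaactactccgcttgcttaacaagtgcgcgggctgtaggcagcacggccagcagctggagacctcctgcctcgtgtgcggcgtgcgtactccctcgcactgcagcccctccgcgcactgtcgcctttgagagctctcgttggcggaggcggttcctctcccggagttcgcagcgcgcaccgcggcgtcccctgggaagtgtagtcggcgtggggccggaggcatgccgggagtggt
ZNF671: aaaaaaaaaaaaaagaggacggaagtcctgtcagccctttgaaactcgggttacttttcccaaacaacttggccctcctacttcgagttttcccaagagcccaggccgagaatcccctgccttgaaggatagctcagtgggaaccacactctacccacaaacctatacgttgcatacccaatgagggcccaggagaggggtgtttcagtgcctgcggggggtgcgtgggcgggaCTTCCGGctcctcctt
ZNF257: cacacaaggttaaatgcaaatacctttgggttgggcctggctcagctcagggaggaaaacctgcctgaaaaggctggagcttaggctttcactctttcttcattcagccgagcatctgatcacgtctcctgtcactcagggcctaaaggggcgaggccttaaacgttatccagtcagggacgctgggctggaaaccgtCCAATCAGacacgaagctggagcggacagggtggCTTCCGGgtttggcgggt
ZNF486: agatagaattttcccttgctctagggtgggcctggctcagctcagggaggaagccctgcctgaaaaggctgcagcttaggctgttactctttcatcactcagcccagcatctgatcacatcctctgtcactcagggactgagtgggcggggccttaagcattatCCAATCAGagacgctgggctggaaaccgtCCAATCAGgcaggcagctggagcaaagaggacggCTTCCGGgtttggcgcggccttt
ZNF737: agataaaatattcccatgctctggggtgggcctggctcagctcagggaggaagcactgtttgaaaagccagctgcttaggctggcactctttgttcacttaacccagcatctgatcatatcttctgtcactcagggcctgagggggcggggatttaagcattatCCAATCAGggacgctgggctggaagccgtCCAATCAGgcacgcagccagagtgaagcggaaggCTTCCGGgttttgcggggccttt
ZNF486 and ZNF737 hold CCAATCAG at 86 and 57 bases before the start and CCGGAAG at 23 bases, and the printed bases are 86.8% identical. ZNF257 holds the 2 words once each, at 52 and 18 bases, and is 79.2% identical to ZNF486 and 77% to ZNF737. ZNF671 has CCGGAAG alone, at 16 bases, and ZNF354C has neither word. Identity between these last genes and the cluster 5 genes ran from 47.2% to 53.8%.

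The comparison of 2 h with mock looks at the early response to the added protein. Of the 1153 ZNF regions, 661 had enough mean signal to be tested by the authors (at least 56.2). No region rose and 1 fell, near ZNF436 (the authors' DESeq2, adjusted p under 0.05). Over all tested regions the percentage called was 0.856 for higher and 0.421 for lower. At an unadjusted p under 0.05, 5 ZNF regions were higher and 36 lower. These were 0.756% and 5.45% of those tested, against 4.33% and 5.68% over all tested regions. Within 10000 bases of other genes the shares were 1.93% and 5.91%, and 80 rose and 51 fell of 24911 tested. At gene starts they were 0% and 5.88% for ZNF genes and 0.239% and 7.21% for other genes. The median log2 fold change of the tested ZNF regions was -0.11, against -0.089 for regions within 10000 bases of other genes and -0.060 for all tested regions. The ZNF median was -0.047 once fold changes were centred on the median tested region, -0.025 within bins of mean signal and -0.0095 within distance classes. At gene starts it was -0.11 for both ZNF genes and other genes, and 91.7% of ZNF start regions and 89% of the others stood below 0. ZNF starts and other starts thus stood at the same median.

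The region that fell lay 1546 bases upstream of the start of ZNF436, a KRAB zinc-finger gene (chr1:23370988-23371489, mean signal 157). In the authors' deposited table its log2 fold change was -0.73 ± 0.20 (SE) at 2 h, a 1.65-fold decrease (adjusted p = 0.0243, DESeq2). The signal implied by the deposited mean and both fold changes was 113 at 2 h, 171 at 18 h and 187 in mock. These group signals are estimates without a spread. The call depended on the authors' filter on mean signal: with p-values adjusted over all regions, 0 ZNF regions were called lower at 2 h. At 18 h the same region stood at -0.13 ± 0.19 against mock (adjusted p = 0.966, DESeq2, authors' deposited table). A region 838 bases downstream of the ZNF436 start, with a mean signal of 1098, was not called at 2 h, with -0.10 ± 0.08 in the authors' deposited table.

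The next smallest p-values below 0 at 2 h belonged to regions that were not called. By the authors' deposited table these were a region 4376 bases downstream of ZNF775 (-0.30 ± 0.09, adjusted p = 0.075, DESeq2) and the start regions of ZNF253 (-0.28 ± 0.10), ZNF101 (-0.29 ± 0.10) and ZNF207 (-0.38 ± 0.13). ZNF207 encodes a spindle assembly factor that binds BUB3. Above 0, the smallest p-values lay away from starts, at ZNF43 (0.62 ± 0.24 at 2870 bases), ZNF620 (0.43 ± 0.18 at 996 bases), ZNF366 (0.50 ± 0.21 at 3165 bases) and ZNF536 (0.50 ± 0.23 at 9551 bases) in the authors' deposited table. ZNF366 encodes a factor known from dendritic cells, and ZNF536 one known from neurons. No region above 0 had an adjusted p under 0.23 in the authors' deposited table (DESeq2), the value of the ZNF43 region.

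The comparison of 18 h with mock looks at the later response. Of 561 tested ZNF regions (mean signal at least 101), 0 rose and 0 fell by the authors' DESeq2 test at an adjusted p under 0.05. The percentage called over all tested regions was 0.00542 for higher and 0.116 for lower. At an unadjusted p under 0.05, 4 ZNF regions were higher and 9 lower, or 0.713% and 1.6%, against 0.569% and 7.32% over all tested regions. Within 10000 bases of other genes the shares were 0.256% and 4.67%, and 0 rose and 10 fell of 18336 tested. At gene starts they were 0.831% and 0.554% for ZNF genes and 0.051% and 1.79% for other genes. The median log2 fold change of the ZNF regions was -0.020, and it turned to 0.049 once fold changes were centred on the median tested region and to 0.051 once centred within bins of mean signal. Regions within 10000 bases of other genes had a median of -0.062, and all tested regions -0.069. At gene starts the ZNF median was -0.016, which turned to 0.053 on centring, and that of other genes was -0.054, which turned to 0.016. Start regions stood below 0 in 57.3% of cases for ZNF genes and in 75% for other genes.

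The ZNF regions with the smallest p above 0 at 18 h were not called. By the authors' deposited table they included the starts of ZNF671, a gene often methylated in tumours (0.42 ± 0.17, adjusted p = 0.443, DESeq2), ZNF180 (0.27 ± 0.13), ZNF689 (0.23 ± 0.12) and ZNF354C (0.26 ± 0.14), and a region 6351 bases upstream of ZNF736 (0.21 ± 0.09). Below 0 they were the start region of ZNF474 (-0.53 ± 0.21) and regions 2095 bases from ZNF367 (-0.30 ± 0.11), 3202 bases from ZNF792 (-0.44 ± 0.19), 2625 bases from ZNF385A (-0.50 ± 0.22) and 5235 bases from ZNF683 (-0.30 ± 0.13) in the authors' deposited table. ZNF385A encodes a partner of p53, and ZNF683 encodes the lymphocyte factor Hobit. Both directions held regions at gene starts.

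The comparison of 18 h with 2 h looks at the change between the 2 times. Of 740 tested ZNF regions (mean signal at least 41.7), 3 rose (near ZNF670, ZNF506 and ZNF253) and 2 fell (near ZNF668 and ZNF281) by the authors' DESeq2 test. The percentage called over all tested regions was 0.498 for higher and 2.98 for lower. At an unadjusted p under 0.05, 41 ZNF regions were higher and 15 lower. These were 5.54% and 2.03% of those tested, against 3.44% and 8.18% over all tested regions. Within 10000 bases of other genes the shares were 2.5% and 4.27%, and 65 rose and 421 fell of 29807 tested. Among 8587 tested starts of other genes, 10 rose and 11 fell. The median log2 fold change was 0.089 for ZNF regions, 0.033 for regions within 10000 bases of other genes and 0.011 for all tested regions. The ZNF median was 0.046 once fold changes were centred within distance classes. These values are the difference of both comparisons with mock and come from the same libraries, so they are no separate evidence.

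**Figure D1:**
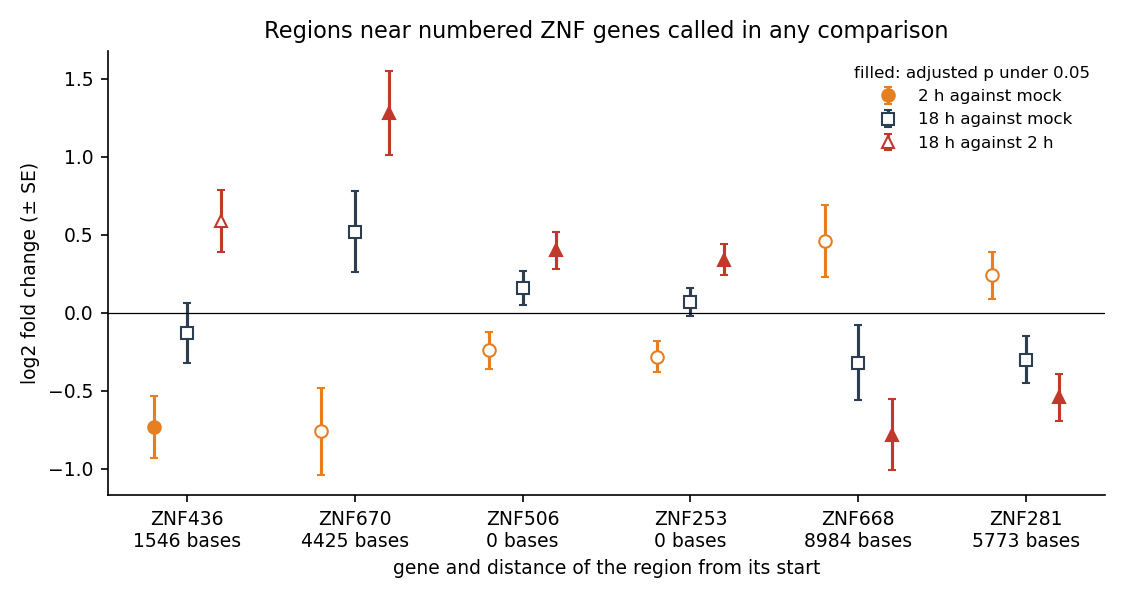
Log2 fold change (vertical axis, ± SE) of the 6 ZNF regions called in any comparison, with the distance of each region from its gene's start on the horizontal axis. Filled symbols mark an adjusted p under 0.05; the ZNF670 region stands highest, at 1.28 between 18 h and 2 h.

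The plot of the 6 called regions shows that 5 of them had fold changes of opposite sign at 2 h and 18 h against mock, while the ZNF436 region was below 0 at both times. Signs of that kind come with the choice of regions by their difference between the times.

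The highest of the regions that rose lay 4425 bases downstream of the start of ZNF670 (chr1:247073830-247074331, mean signal 86.1) and was also named for the readthrough transcript ZNF670-ZNF695. Its log2 fold change in the authors' deposited table was 1.28 ± 0.27, a 2.43-fold increase at 18 h over 2 h (adjusted p = 0.000398, DESeq2). Implied signal was 123 at 18 h, 50.4 at 2 h and 85.4 in mock, so mock lay between the 2 times. Against mock it stood at -0.76 ± 0.28 at 2 h (adjusted p = 0.199, DESeq2) and at 0.52 ± 0.26 at 18 h, where it was not tested, in the authors' deposited table. The start region of ZNF670 had a mean signal of 751 and a log2 fold change of 0.069 ± 0.09 between 18 h and 2 h in the authors' deposited table. No change was detected at the start.

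Both start regions that rose belong to cluster 5 on chromosome 19. Neither is among the 25 promoters of that cluster whose words and identity are given above. That of ZNF506 (chr19:19821494-19821995, mean signal 488) had a log2 fold change of 0.40 ± 0.12, a 1.32-fold increase at 18 h over 2 h (adjusted p = 0.0244, DESeq2, authors' deposited table). Its implied signal was 552 at 18 h, 420 at 2 h and 494 in mock. That of ZNF253 (chr19:19865625-19866126, mean signal 673) rose 1.27-fold, by 0.34 ± 0.10 (adjusted p = 0.0161, DESeq2, authors' deposited table). Its implied signal was 737 at 18 h, 580 at 2 h and 702 in mock. In both genes the implied signal at 18 h lay slightly above that in mock, and neither difference from mock was called. Against mock, ZNF506 stood at -0.24 ± 0.12 at 2 h and 0.16 ± 0.11 at 18 h, and ZNF253 at -0.28 ± 0.10 and 0.07 ± 0.09, in the authors' deposited table.

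The regions that fell lay away from starts. One lay 8984 bases downstream of the start of ZNF668, whose product acts in the DNA damage response (chr16:31064836-31065337, mean signal 104). It fell 1.72-fold at 18 h against 2 h, with a log2 fold change of -0.78 ± 0.23 (adjusted p = 0.0288, DESeq2, authors' deposited table). Implied signal was 78.8 at 18 h, 135 at 2 h and 98.7 in mock. This call was lost when p-values were adjusted over all regions, without the filter on mean signal, while those of ZNF670, ZNF506, ZNF253 and ZNF281 were kept. The other lay 5773 bases upstream of the start of ZNF281, a regulator linked to pluripotency and epithelial-mesenchymal transition (chr1:200415829-200416330, mean signal 276). It fell 1.45-fold, with -0.54 ± 0.15 (adjusted p = 0.0138, DESeq2, authors' deposited table), and its implied signal was 225 at 18 h, 327 at 2 h and 277 in mock. In that comparison the start region of ZNF281 had 0.10 ± 0.11, and a region 6487 bases away had -0.49 ± 0.35 (authors' deposited table).

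Further regions near the threshold in this comparison were not called. By the authors' deposited table the start region of ZNF354C had 0.43 ± 0.14 (adjusted p = 0.0513, DESeq2) and that of ZNF671 had 0.51 ± 0.17 (adjusted p = 0.0786). The ZNF436 region had 0.59 ± 0.20 (adjusted p = 0.0646, DESeq2, authors' deposited table). Below 0 stood regions of ZNF792 (-0.56 ± 0.18), ZNF674 (-0.90 ± 0.35) and ZNF683 (-0.32 ± 0.13) in the authors' deposited table.

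**Figure D2:**
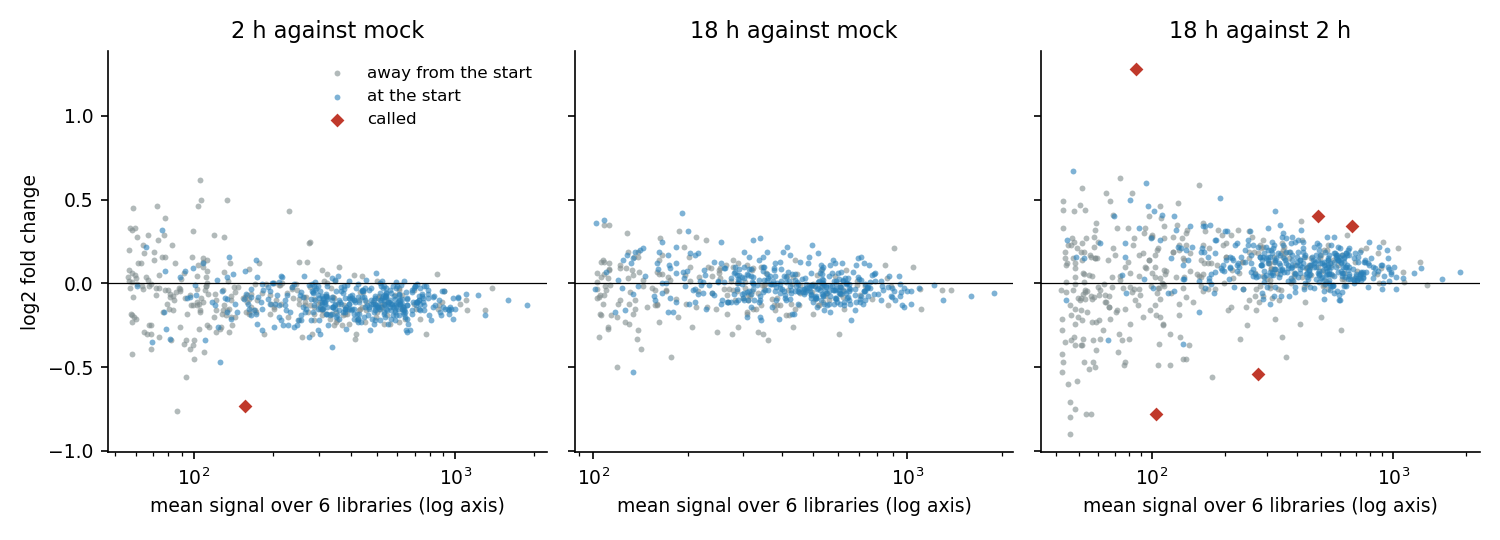
Log2 fold change of each tested ZNF region (vertical axis) against its mean signal over the 6 libraries (horizontal axis, log scale), with 1 panel per comparison. Blue points are regions at a gene start, grey points lie away from it and red diamonds are called; the 661, 561 and 740 tested regions spread more widely at low signal.

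The plot of fold change against mean signal shows where the data could have made a call. At the median standard error of a ZNF start region, 0.12, a call needed a log2 fold change of 0.42 at 2 h, 0.48 at 18 h and 0.38 between the 2 times, or 1.33-, 1.39- and 1.3-fold. Over 1000 bases from a start the sizes needed were 0.73, 0.68 and 0.75. At these standard errors smaller changes could not be called. Regions with a smaller standard error could be called below these sizes, as the ZNF253 start region was between the times (0.34 ± 0.10, authors' deposited table). In no comparison did the authors test 413 of the 1153 ZNF regions.

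**Figure D3:**
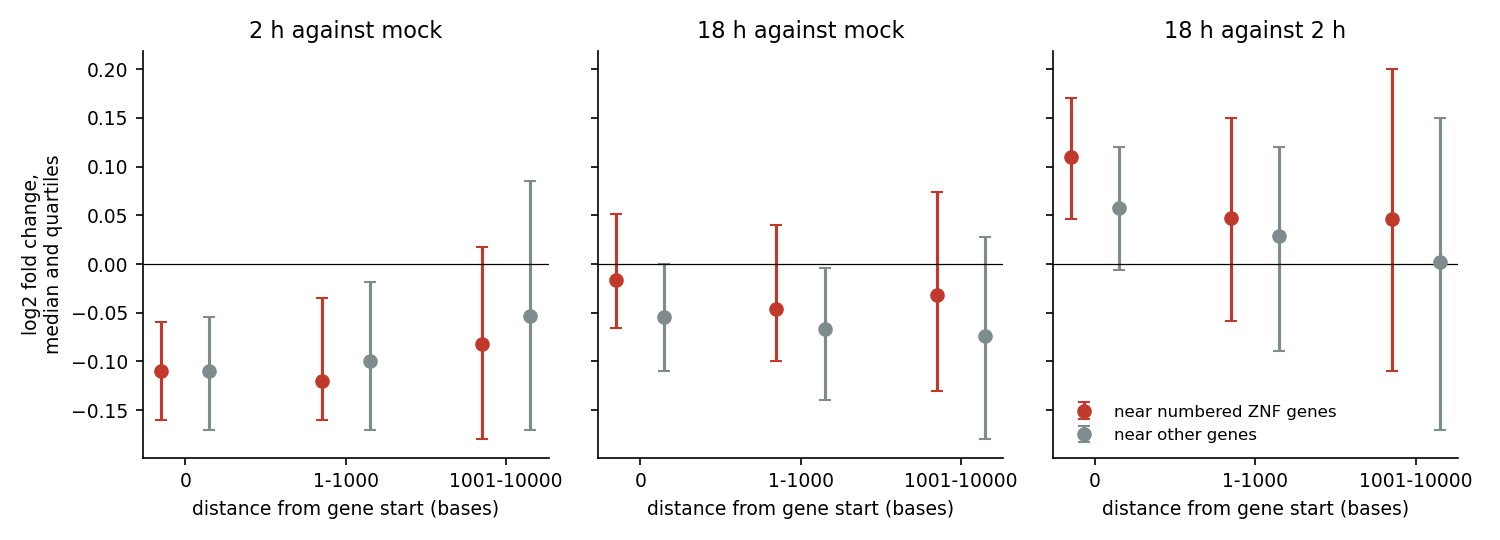
Median log2 fold change (vertical axis, bars from the lower to the upper quartile) by distance from the gene start, for ZNF regions (red) and regions of other genes (grey), with 1 panel per comparison. Between 18 h and 2 h the ZNF medians are 0.11 at the start, 0.047 at 1 to 1000 bases and 0.046 over 1000 bases away.

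Between 18 h and 2 h the ZNF medians were highest at gene starts, as the plot by distance shows. At gene starts the ZNF median was 0.11 and that of other genes 0.058, and 11.9% and 27.2% of start regions stood below 0. Of the 379 tested ZNF start regions, 26 were higher and 0 lower at an unadjusted p under 0.05 (6.86% and 0%). Among tested starts of other genes the shares were 2.39% and 0.641%, and over all tested regions 3.44% and 8.18%. At 1 to 1000 bases the medians were 0.047 for ZNF genes and 0.029 for other genes, and over 1000 bases away they were 0.046 and 0.0018. Beyond 10000 bases, regions named for numbered ZNF genes had a median of 0.022, and 5 rose and 37 fell among 992 tested, where 0.498% and 2.98% of all tested regions did. Leaving out 48 ZNF start regions that are also named for another gene left the median at 0.11. Numbered ZFP, ZSCAN and ZKSCAN genes, picked by symbol, are mostly relatives with the same kind of fingers. Regions at their starts had medians of -0.11 at 2 h against mock (24 regions) and 0.0023 at 18 h against mock (23 regions). Between 18 h and 2 h their median was 0.079 (24 regions).

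**Figure D4:**
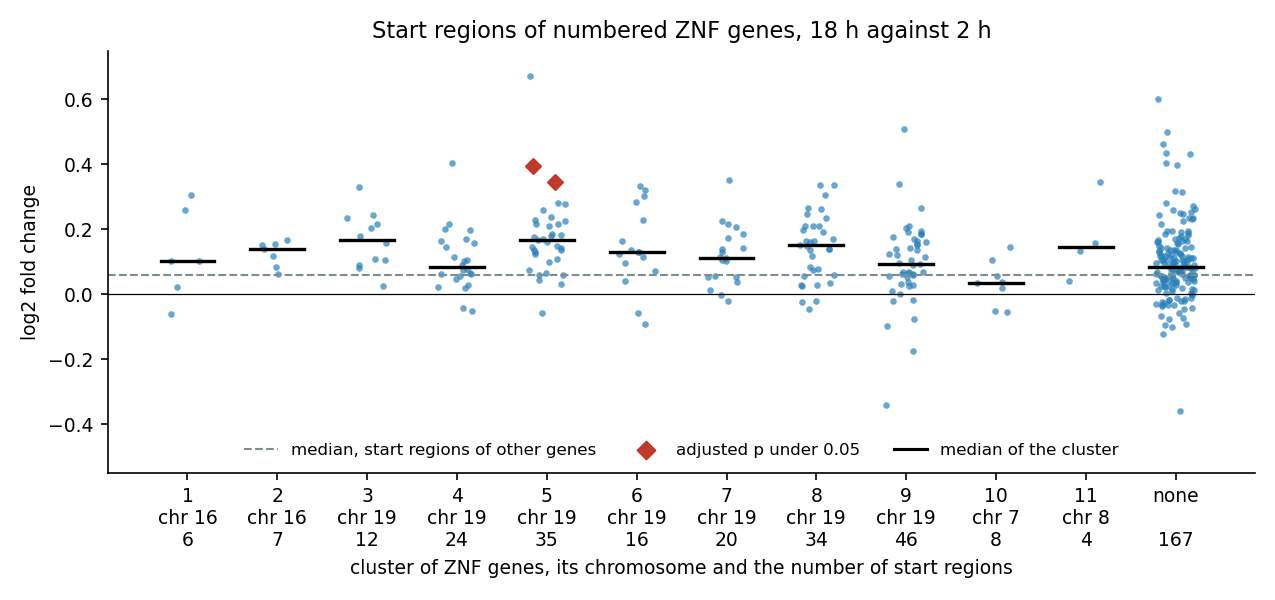
Log2 fold change between 18 h and 2 h (vertical axis) of ZNF start regions by cluster (horizontal axis, with chromosome and number of start regions). Red diamonds are called, black lines are cluster medians and the dashed line is the median of other genes' start regions, 0.058; both called regions are in cluster 5, whose median is 0.17.

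Medians between 18 h and 2 h were higher at ZNF starts on chromosome 19 than elsewhere, a difference given without a test. Between 18 h and 2 h, start regions of ZNF genes on chromosome 19 had a median of 0.13 and those on other chromosomes 0.082, while starts of other genes on chromosome 19 had 0.091. At 18 h against mock the same medians were -0.0085, -0.034 and -0.042 as deposited, and on centring they turned to 0.061, 0.035 and 0.027. In cluster 5, 34 of 35 start regions were above 0 between 18 h and 2 h, 9 of them were higher at an unadjusted p under 0.05 (25.7%) and 2 were called. Starts of other genes on chromosome 19 were above 0 in 371 of 456 cases and higher at that p in 5.92%. Of 8587 tested starts of other genes on all chromosomes 10 rose. The share in cluster 5 was not particular to it: in cluster 6, 14 of 16 start regions were above 0 and 4 were higher at that p (25%). In cluster 3, 12 of 12 were above 0 and 0 were higher at that p. In cluster 4, 22 of 24 were above 0 and 1 was higher at that p (4.17%). At 2 h against mock, 34 of 34 tested start regions of cluster 5 were below 0, with a median of -0.13, as were 24 of 24 in cluster 4, 8 of 8 in cluster 10 and 91.2% of other genes' starts on chromosome 19. At 18 h against mock, 17 were above 0 and 16 below as deposited, with a median of 0.013. Cluster 3 had a median of 0.17 between 18 h and 2 h, cluster 8 had 0.15 and cluster 10 had 0.036. ZNF start regions whose promoters held CCAATCAG had a median of 0.12 and those without it 0.10, and clusters 4 and 5, both rich in that word, had medians of 0.083 and 0.17. Genes of a cluster share sequence and neighbourhood and are not independent.

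**Figure D5:**
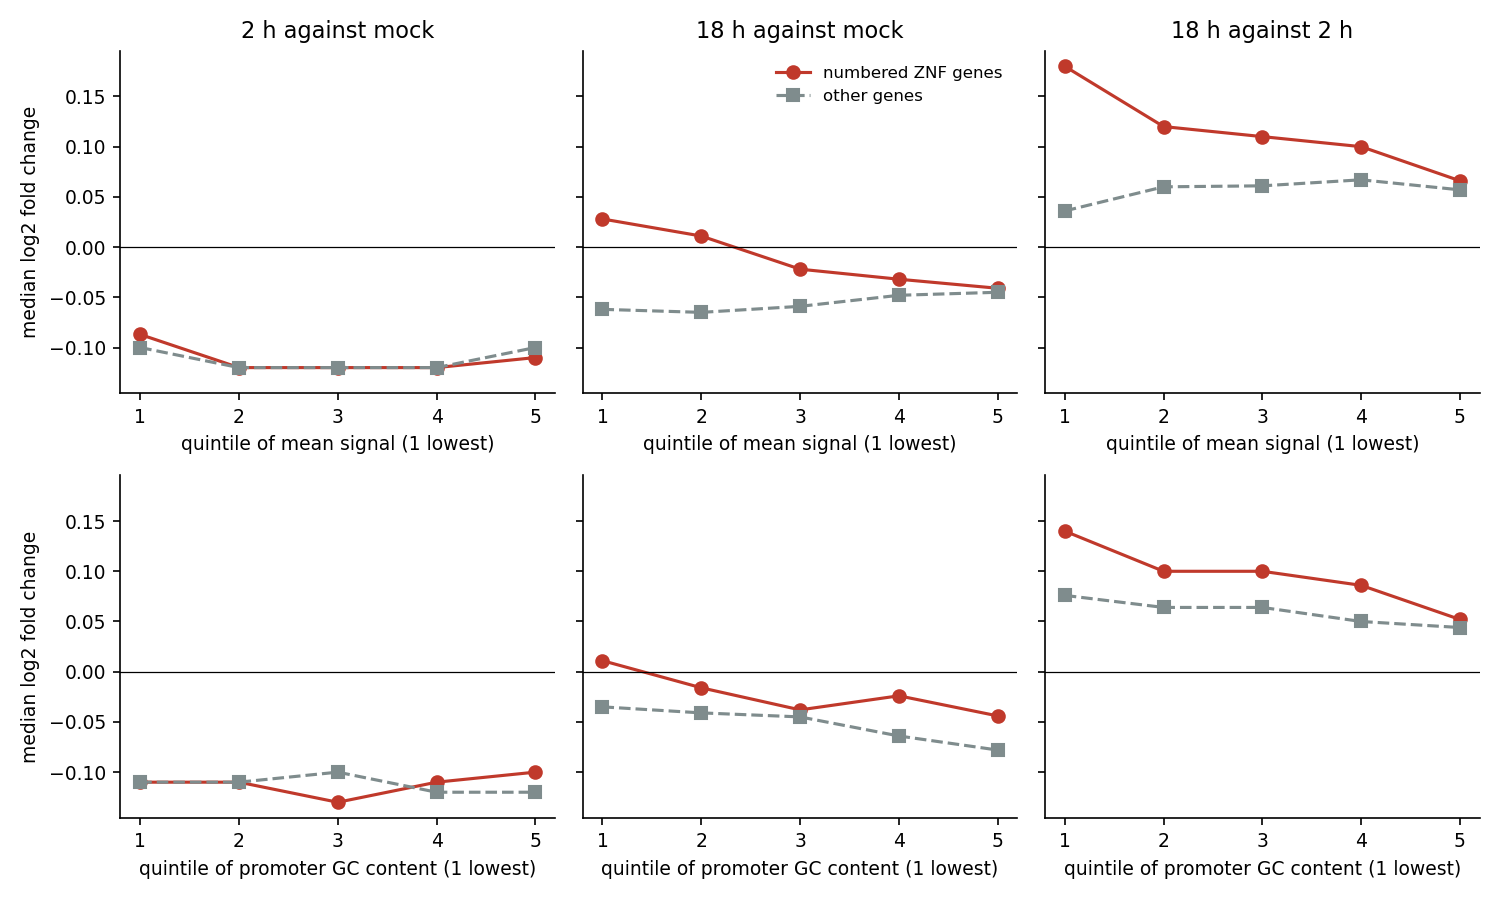
Median log2 fold change (vertical axis) of start regions by quintiles of mean signal (upper row) and of promoter GC content (lower row), for numbered ZNF genes (red) and other genes (grey). Between 18 h and 2 h, the ZNF median exceeds that of other genes most in the lowest quintile of mean signal, 0.18 against 0.036, and least in the highest, 0.066 against 0.057.

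The difference between ZNF starts and other starts varied with signal strength. Between 18 h and 2 h the medians in the lowest quintile of mean signal were 0.18 for ZNF starts and 0.036 for other starts, and in the highest quintile 0.066 and 0.057. In the lowest quintile of promoter GC content they were 0.14 and 0.076, and in the highest quintile 0.052 and 0.044. At 18 h against mock the ZNF median minus that of other genes was 0.046, 0.025, 0.0076, 0.040 and 0.033 from the lowest to the highest GC quintile, with no trend, and at 2 h it lay between -0.024 and 0.026. At 18 h against mock, ZNF starts had 0.028 and other starts -0.062 in the lowest quintile of signal, and -0.041 and -0.045 in the highest, as deposited. At 2 h against mock the medians of both kinds of start differed by 0.011 or less in each quintile of signal. The part of signal and base composition in these differences was not tested.

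Genes with several tested regions were sorted by the signs of those regions. Among all tested ZNF regions, 84.4% stood below 0 at 2 h against mock and 26.8% between 18 h and 2 h. At such shares regions would often share a sign, so the counts do not measure agreement within a gene. At 2 h against mock, 86 of 145 genes with at least 2 tested regions had all of them below 0, 3 had all above 0 and 56 were mixed. Between 18 h and 2 h, 8 of 170 genes had all regions below 0, 60 had all above 0 and 102 were mixed. ZNF608 was mixed: its 7 tested regions ran from -0.51 at 5708 bases downstream to 0.37 at 3240 bases upstream in the authors' deposited table. For ZNF687, a chromatin factor gene, the 6 tested regions lay between 0.047 and 0.27 in the authors' deposited table, and the region at its start had 0.070 ± 0.07.

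No region in the gene lists of known function was called higher. Over all tested regions 0.856% were at 2 h, 0.00542% at 18 h and 0.498% between the times. At these shares lists of this size would often hold none. Of 15 genes whose products repress transposable elements or imprinted loci, 13 had a region, and 0 of their tested regions were called in any comparison (DESeq2). In either direction 1.28%, 0.121% and 3.48% of all tested regions were called, so 0 calls say little about this list. At an unadjusted p under 0.05, 1 of 14 was higher and 2 were lower at 2 h, 0 and 0 of 14 at 18 h, and 1 and 1 of 16 between the 2 times. Over all tested regions these shares were 4.33% and 5.68%, 0.569% and 7.32%, and 3.44% and 8.18%. The start region of ZNF91, which silences SVA elements, had -0.15 ± 0.10 at 2 h, -0.12 ± 0.09 at 18 h and 0.033 ± 0.10 between the times in the authors' deposited table. That of ZNF93, which silences L1 elements, had -0.078 ± 0.10, -0.019 ± 0.10 and 0.059 ± 0.10 in the same order. At their start regions ZNF85 had 0.17 ± 0.11, ZNF43 had 0.18 ± 0.11, ZNF141 had 0.18 ± 0.11 and ZNF431 had 0.10 ± 0.10 between 18 h and 2 h in the authors' deposited table. The other tested region of ZNF43, 2870 bases downstream, had -0.49 ± 0.23 there and is the 1 lower region of the list. The start medians of the list were -0.13, -0.031 and 0.10, and the second turned to 0.038 on centring.

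Of 28 genes for other transcription regulators, 27 had a region, with 64, 47 and 76 regions tested at 2 h, at 18 h and between the times. The ZNF281 region, lower between the times, was the only one called, where 0.498% of all tested regions rose and 2.98% fell. The start region of ZNF143, an activator that binds promoters, had -0.16 ± 0.09 at 2 h, -0.0039 ± 0.09 at 18 h and 0.15 ± 0.09 between the times in the authors' deposited table. A region 17 bases upstream of the start of ZNF217, an oncogene amplified in breast cancer, had -0.24 ± 0.11, -0.10 ± 0.10 and 0.14 ± 0.11 in the authors' deposited table. ZNF384, a fusion partner in leukaemia, had -0.15 ± 0.09, -0.13 ± 0.09 and 0.015 ± 0.09 there. Of 11 genes for RNA, ribosome, spindle and SUMO factors, 10 had a region, and 0 of 16, 15 and 17 tested regions were called (DESeq2). Over all tested regions 1.28%, 0.121% and 3.48% were called in either direction, so 0 calls say little about so few regions. At an unadjusted p under 0.05, 0 were higher and 1 lower at 2 h, and 0 in either direction in the other comparisons. The shares over all tested regions were 4.33% and 5.68% at 2 h, 0.569% and 7.32% at 18 h, and 3.44% and 8.18% between the times. By the authors' deposited table, the ribosome collision ligase gene ZNF598 had -0.15 ± 0.13, 0.042 ± 0.13 and 0.19 ± 0.13. The SUMO ligase gene ZNF451 had -0.076 ± 0.10, -0.12 ± 0.10 and -0.044 ± 0.10 in the authors' deposited table, in the order of 2 h, 18 h and the difference between the times.

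The corepressors through which KRAB proteins act were looked at beside them, and 14 of 15 such genes had a region within 10000 bases. Of their tested regions 0 were called in any comparison (DESeq2), where 1.28%, 0.121% and 3.48% of all tested regions were. At an unadjusted p under 0.05, 0 of 21 were higher and 6 lower at 2 h (28.6% lower, against 5.68% over all tested regions), and 0 of 19 higher and 4 lower at 18 h (21.1%, against 7.32%). Between the times 3 of 26 were higher and 1 lower (11.5% and 3.85%, against 3.44% and 8.18%). At gene starts 3 of 10 were lower at 2 h and 1 of 10 at 18 h, against 7.21% and 1.79% of other starts. Some of these genes gave more than 1 region, so the shares over so few regions say little about this list. The region nearest the start of TRIM28 had a mean signal of 1068 and stood at -0.13 ± 0.09 at 2 h, -0.041 ± 0.09 at 18 h and 0.089 ± 0.09 between the times in the authors' deposited table. SETDB1, the histone methyltransferase, had -0.21 ± 0.11, -0.13 ± 0.11 and 0.077 ± 0.11 there. Of the regions nearest each start, those with the smallest p between 18 h and 2 h were at ATF7IP, a partner of SETDB1, with 0.40 ± 0.14 (adjusted p = 0.0955, DESeq2, authors' deposited table), and SMARCAD1, a chromatin remodeller, with 0.45 ± 0.15 at 8971 bases (adjusted p = 0.0687).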

How the data were processed

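ATAC-seq regions of A375 cells were taken from the authors' 3 deposited comparison tables; 0 columns held the values of 1 library, so no model was fitted anew and the branch planned for such tables applied. Per the submitters' processing notes, hg38 was the build, and the authors used bcl2fastq 2.17 and DESeq2. For the aligner, peak caller, read counter, Tn5 shift and the authors' DESeq2 version, nothing is given in the sources used here. Each row of the deposited tables gave the mean signal over the 6 libraries (read counts after the authors' scaling), the log2 fold change with its standard error, a score (the Wald statistic), and the deposited p-value before and after adjustment. Whether starts count from 0 or 1 was not stated. The deposited log2 values show that 18 h against 2 h is both mock comparisons subtracted, to within 1.02e-14, so 1 fit gave all 3. Regions with a low mean signal carried a deposited adjusted p of 1 and were treated as not tested; 86137, 55341 and 108134 regions remained.

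A region was kept once, for its nearest numbered ZNF gene. Upstream and downstream follow the strand of the RefSeq promoter table (GRCh38.p14), which held 404 of the 482 genes. Called means an adjusted p under 0.05 in the authors' table, over all tested regions. Named regions were all those called; where fewer than 5 were called in a direction, those with the smallest p up to 5; the 8 with the highest signal; genes with the most regions; and up to 6 per gene list. The members and lists were chosen with earlier results of these data known. Clusters, quintiles, implied group signals, words and printed promoters were chosen after the values or sequences were seen. The words came from a search of words of 8 or more bases and a few known motifs. Identity is the share of equal columns in a global alignment. Exons and introns were not analysed here. Counting and centring were tested on simulated data (Python 3.11.15, pandas 2.3.3, numpy 2.4.6, scipy 1.17.1). Alternatives were other thresholds, centrings, distance limits, 1 value per gene and no filter on signal.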

Additional observations from a re-analysis of the deposited data

Results flagged for a closer look

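In 5 of 740 tested ZNF regions accessibility at 18 h differed from that at 2 h in the authors' DESeq2 comparison of the 2 times, where 3.48% of all tested regions did. The time at which mock cells were taken is not stated, so time in culture and time of exposure to recombinant HMGA1 cannot be told apart. By the authors' deposited table, log2 fold changes of 18 h against 2 h were 1.28 for ZNF670, 0.40 for ZNF506 and 0.34 for ZNF253, and -0.54 for ZNF281 and -0.78 for ZNF668. Against mock, none of the 5 was called at 2 h or 18 h, and the ZNF670 region was not tested at 18 h. For ZNF253 and ZNF506 the values belong to cluster 5, where many pairs, but not all, of the 25 promoters compared were alike in sequence. Their own promoters were not among those 25, so the likeness of these 2 was not measured.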

How the results depend on the processing

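No paired analysis was possible because the tables hold no values of single libraries; fits with the replicate number and fits that leave out a library were not run for the same reason, so no call could be checked against a single library. Of the recomputed counts and medians, 47 were classed as the same. For a count this meant within 1.5 times of the reported one, and for a median the same sign at any size. Of the others, 3 medians reversed, 3 counts rose by more than 1.5 times and 7 fell by more. Many of the 47 were counts of 0 that stayed 0, some of which could not change, as at a stricter threshold. The median at 2 h against mock also counted as the same, though it went from -0.11 to -0.0095 within distance classes. The tally is thus no measure of how stable the sizes were. With an adjusted p under 0.01, lower calls at 2 h went to 0, higher calls between 18 h and 2 h to 1 and lower calls there to 0, where 0.15%, 0.207% and 1.75% of all tested regions were called. With an adjusted p under 0.1 these were 2, 9 and 3, where the percentage called over all tested regions was 0.794, 0.84 and 3.88. With no filter on mean signal, 1 region was called higher and 0 lower at 2 h (the ZNF436 call was lost, as was that of ZNF668 between the times), against 0.239% and 0.0908% of all regions. With a distance limit of 1000 bases, lower calls were 0 at 2 h and 0 between the times, and with a limit of 5000 bases they were 0 between the times, since those regions lie farther away. The median at 18 h against mock, -0.020 as deposited, turned to 0.049 on centring on the median tested region, 0.051 within bins of mean signal and 0.037 within distance classes; the cause was not tested. The 6 called values of single regions kept their call and direction under both centrings. All tested regions had medians of -0.060 at 2 h, -0.069 at 18 h and 0.011 between the times.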

Other observations

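A region 8901 bases downstream of the start of ZNF662 (chr3:42914631-42915132), chosen after its values were seen, had a mean signal of 32.9 and was not tested by the authors. In the authors' deposited table its log2 fold change was 2.34 ± 0.46 at 2 h against mock, 0.39 ± 0.50 at 18 h against mock and -1.95 ± 0.43 at 18 h against 2 h. Adjusting the deposited DESeq2 p-values over all regions, with no filter on signal, gave adjusted p = 0.000557 for the first and 0.00157 for the last.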
